A study of Mus musculus with 237 samples.

Results

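Simple epithelial keratins are the intermediate filament proteins of single-layered epithelia, and 5 of their genes were followed here in single cells of mouse skin at E14.5. They were taken by symbol and Ensembl identifier from the 55335 genes of the count table. Krt8 (ENSMUSG00000049382) and Krt7 (ENSMUSG00000023039) encode type II keratins, and Krt18 (ENSMUSG00000023043), Krt19 (ENSMUSG00000020911) and Krt20 (ENSMUSG00000035775) encode type I keratins. The labelled cells came from C57BL/6N embryos carried by ICR surrogate mothers, 66 of them from 3 wild-type (WT) embryos and 171 from 7 Trp63 mutant (p63 knockout) embryos. The mutants were made by electroporation of zygotes with Cas9 and a guide to the exon of the p53-family factor p63 that codes for its DNA-binding domain. WT epidermis was first lifted off the dermis with dispase, whereas knockout fetuses went straight into trypsin. From both, live cells without CD45, TER119 and CD140a were sorted one by one. CD140a is the product of Pdgfra, a receptor of mesenchymal cells.

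SMART-Seq HT was used, in which every sorted cell becomes a separate full-length cDNA library and no molecular identifier is added. By the study's methods, amplified cDNA was screened by qPCR before sequencing, for Krt8 in the knockout and for Krt5 in WT. The share of sequenced cells with Krt8 was therefore set in part by that screen. The count table holds as many columns as there are labelled cells, named by sequencing run alone. Of these, 16 are paired with a labelled cell, and all 16 belong to WT embryo WT01. The other 221 columns have no known genotype or label here, so all columns were read as 1 pooled set without a test. Column totals lay between 2701500 and 19197138 counts, with a median of 6938031. Levels are counts scaled to the column total (CPM), and a gene was called present at 10 CPM or more. Intervals are exact at 95% and cover counting error only, because amplified reads are not independent molecules and columns of the same embryo are not replicates.

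Keratins are built as obligate pairs of a type II and a type I chain. In simple epithelia KRT8 pairs mainly with KRT18, while KRT7, KRT19 and KRT20 are added in particular ducts, surface layers and mucosae. The early surface ectoderm carries KRT8 and KRT18, and the stratifying epidermis replaces them with KRT5 and KRT14 in its basal layer. In adult skin KRT8, KRT18 and KRT20 are known for Merkel cells, the touch receptors of the epidermis.

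In GRCm38, Krt8 lies on the minus strand of chromosome 15 from 101996698 to 102004482. Krt18 lies on the plus strand of the same chromosome from 102028180 to 102032027. It is thus set apart from the other type I genes, and the start sites of the pair face away from each other across 23697 bases. Krt7 also sits on the plus strand of chromosome 15 (101411043 to 101430313). Krt19 and Krt20 lie on the minus strand of chromosome 11, from 100140810 to 100148665 and from 99428403 to 99438150. Krt8 and Krt18 were the members that varied most alike, so the bases before their first annotated exon are shown. They come from the RefSeq start-site windows of 300 bases (250 before and 50 after the start, GRCm38.p6), which held 4 of the 5 members, and are given 5′ to 3′ on the strand of the gene. The Krt8 stretch is chr15:102004483-102004592 on the minus strand and the Krt18 stretch chr15:102027966-102028179 on the plus strand. Capitals mark matches to GGAAG (ETS factors) and to GCCNNNGGC (AP-2 factors) on either strand.
Krt8: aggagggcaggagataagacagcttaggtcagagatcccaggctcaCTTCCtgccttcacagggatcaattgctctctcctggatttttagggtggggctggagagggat
Krt18: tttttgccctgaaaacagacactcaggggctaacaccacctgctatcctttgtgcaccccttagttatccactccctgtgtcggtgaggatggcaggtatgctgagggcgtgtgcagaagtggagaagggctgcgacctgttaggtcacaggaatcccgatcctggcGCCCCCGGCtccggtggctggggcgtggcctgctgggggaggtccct

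The capitals in Krt8 are 1 match to GGAAG on the opposite strand, which 71.1% of 27025 start-site windows hold. Those in Krt18 are 1 match to GCCNNNGGC, found in 16.5% of windows. Neither whole window held GGGCGG (the GC box, in 35.9% of windows), CCAAT (37.9%), TGANTCA (AP-1, 7.93%) or AACCGG (the core bound by Grainyhead factors, 6.78%). TATAAA (the TATA box, in 14.2% of windows) matched 2 times in the part of the Krt8 window that GENCODE counts as exon, and did not match the Krt18 window. A match is a run of letters and not a site shown to be bound.

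Krt8 was either abundant or nearly absent in a column. It had no count in 69 columns, stood above 0 and under 10 CPM in 69 (22 of them under 1 CPM), between 10 and 100 CPM in 7, between 100 and 1000 CPM in 21, and at 1000 CPM or more in 71. It was thus present in 99 columns, which is 41.8% of all (interval 35.4% to 48.3%). Where it was present, its median was 1596 CPM and its highest value 6977 CPM.

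Krt18, its type I partner, had a similar spread. It had no count in 70 columns, was present in 98 (41.4%, 35% to 47.9%) and reached 5849.9 CPM, with a median of 1024 CPM where present. Only 12 columns held it between 10 and 100 CPM, against 86 at 100 CPM or more.

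Krt7, the second type II gene, was present as often but had no such gap. Its 98 columns comprised 31 from 10 to 100 CPM, 60 from 100 to 1000 CPM and 7 above that. The median where present was 191 CPM, and the highest value was 4819.7 CPM. The second highest Krt7 value was 4674 CPM and the third 2216 CPM.

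Krt19, a small type I keratin without the usual tail domain, was present in 62 columns (26.2%, 20.7% to 32.2%). Its median there was 147 CPM. The highest column, at 7964 CPM, held 16.8% of all Krt19 counts, and the next one had 1799 CPM. Krt20, the rarest member, had a count in 7 columns and was present in 6 (2.53%, 0.935% to 5.43%), at 43.6 to 287 CPM. The highest of these columns held 46.9% of all Krt20 counts.

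Low values were common. Of the member values from 1 to 20 counts, 185 of 198 were even numbers. Krt8 and Krt18 were both above 0 and both under 10 CPM in 48 columns, with a median log2 of Krt18 over Krt8 of -0.48 by CPM. In the 89 columns with both present, that median was -0.65. The source of the low values was not tested, and presence was therefore read at 10 CPM rather than at 1 count.

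Columns were next divided by Col1a1 and Col3a1, fibrillar collagens of fibroblasts. Both reached 100 CPM in 79 columns (with a median of 13850.3 CPM for Col1a1 and 32629 CPM for Col3a1), and not both in 158. The split uses no member and no label. Simple keratins belonged almost wholly to the 158 columns without both collagens. Krt8 was present in 98 of these (62%, 54% to 69.6%) and in 1 of 79 with both collagens (1.27%, 0.0320% to 6.85%). The counts were 97 and 1 for Krt18, 97 and 1 for Krt7, 60 and 2 for Krt19, and 6 and 0 for Krt20.

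In the columns without both collagens, Krt8 ranged from 0 to 6977 CPM with a median of 603 CPM. In those with both, it ranged from 0 to 169 CPM with a median of 0. Krt18 ranged from 0 to 5849.9 CPM (median 294 CPM) without and from 0 to 192 CPM (median 0) with both. The ranges overlapped for every member, since a part of the columns without both collagens had none of it. Krt7 had medians of 58.8 CPM without and 0 with both collagens, and Krt19 had 0.743 CPM and 0.

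Summed over columns, Krt8 stood at 1241 CPM (1239 to 1242) without and 2.75 CPM (2.6 to 2.90) with both collagens. All 5 members were past 4-fold higher without, as were 14.2% of the 17318 genes with 1 CPM or more in either set. The ratio was 452 for Krt8, 274 for Krt18, 36.4 for Krt7 and 31.5 for Krt19. Krt20 had no count with both collagens and was at least 462-fold higher without, against 3 counts over the set. Without its highest column that bound was 246. Both bounds rest on few columns, as Krt20 was present in 6 of the 158 without and in none with both collagens. The intervals of these shares, 1.41% to 8.08% and 0 to 4.56%, overlapped. They cover counting error only and do not decide whether presence of Krt20 differed between the sets. Of all genes compared, 2.52% had a ratio as high as that of Krt8, and 6.84% one as high as that of Krt19.

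A single column carried most of the simple keratin among the collagen columns. It had 169 CPM of Krt8, 192 of Krt18, 292 of Krt19 and 468 of Krt7 beside 540.3 CPM of Col1a1 and 3542 CPM of Col3a1, and Krt5 and Krt14 were at 2.24 and 2.52 CPM. Without it, the summed level with both collagens was 0.225 CPM for Krt8, 0.140 for Krt18, 0.331 for Krt19 and 0 for Krt7. The ratio for Krt8 then became 5523. Its total of 7136311 counts and its 9649 detected genes lay inside the ranges of the collagen columns, and whether it held more than a single cell was not tested. The other collagen column with a member had 28.7 CPM of Krt19, with 11961 CPM of Col1a1.

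Col3a1 and the simple keratins were not exclusive of each other. Among the 158 columns, 43 had Col3a1 at 100 CPM or more with Col1a1 below, and 115 had neither. Krt8 was present in 39 of the 43 (90.7%, 77.9% to 97.4%) and in 59 of the 115 (51.3%, 41.8% to 60.7%). The median was 1760.4 CPM in the first and 32.1 CPM in the second class, and both classes reached from 0 to over 1000 CPM. Krt18 was present in 38 of 43 and in 59 of 115, and so was Krt7. Krt19 was present in 25 of 43 and in 35 of 115.

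Near the threshold the members differed from column to column. The 2 columns just inside, with Col1a1 at 101 and 116 CPM, had no Krt8. Of the 2 just outside, the column with Col1a1 at 97.3 CPM had 4.08 CPM of Krt8, and that at 89.4 CPM had 1951 CPM.

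**Figure D1:**
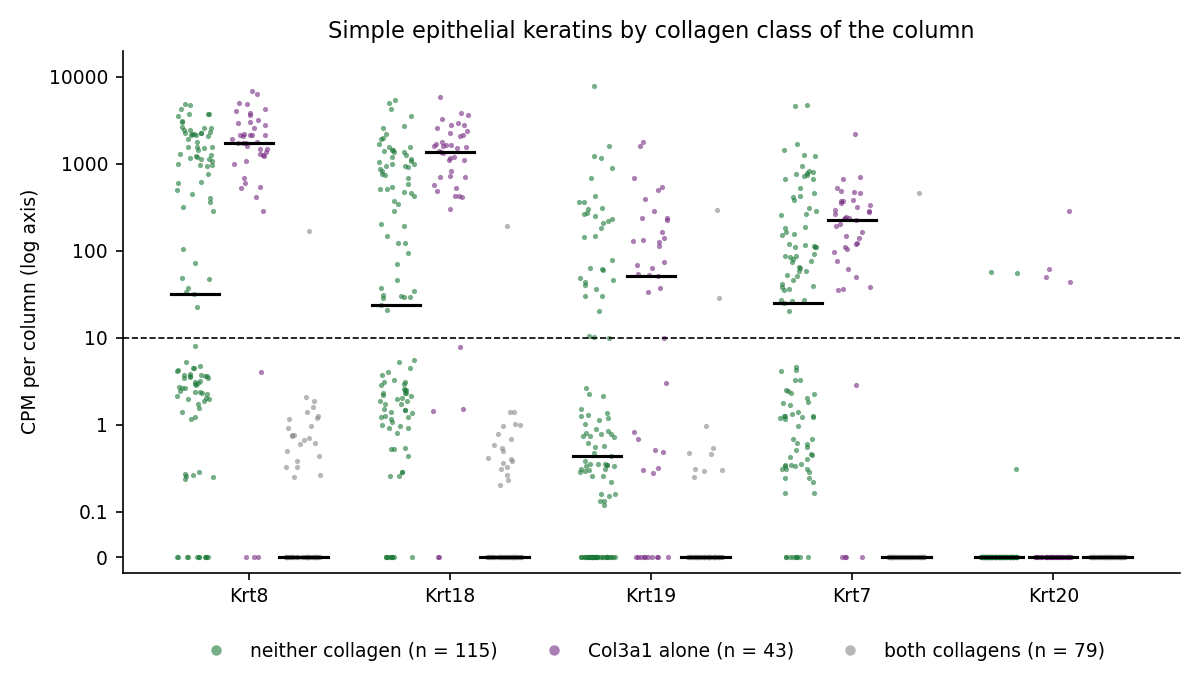
CPM of each simple keratin per column on a log axis, with columns at 0 drawn at the foot and the dashed line at 10 CPM. Points are columns, black bars are medians, and the 43 columns with Col3a1 alone hold Krt8 at a median of 1760.4 CPM against 0 in the 79 columns with both collagens.

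Type II and type I genes were then compared column by column. Krt8 and Krt18 were present together in 89 columns, Krt8 without Krt18 in 10, Krt18 without Krt8 in 9, and neither in 129. Of Krt8 columns, 89.9% (82.2% to 95%) had Krt18, and of Krt18 columns 90.8% (83.3% to 95.7%) had Krt8. The Spearman correlation of their CPM was 0.93 over all columns, 0.89 over the 158 without both collagens, and 0.71 over the 84 with both genes at 100 CPM or more. These columns share a depth and a scaling, and the correlations are given as descriptions.

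The other pairings were looser. Krt7 had Krt18 beside it in 80 of its 98 columns (81.6%, 72.5% to 88.7%). Krt19 was beside Krt8 in 53 of the 99 Krt8 columns (53.5%) and beside Krt7 in 50 of the 98 Krt7 columns (51%). Read the other way, 85.5% of Krt19 columns had Krt8 and 80.6% had Krt7. Members of the same type shared columns about as often. Krt8 was beside Krt7, both type II, in 83 of the 98 Krt7 columns (84.7%). Krt18 was present in 83.9% of the columns with Krt19, both type I. Shared presence thus did not set these looser pairings apart from genes of the same type. Within the 84 columns with Krt8 and Krt18 at 100 CPM or more, the correlation was 0.04 for Krt8 with Krt7, -0.07 for Krt8 with Krt19, and -0.09 for Krt18 with Krt19. The amounts of Krt7 and Krt19 thus did not follow those of Krt8 and Krt18 there, although 75 of the 84 had Krt7 and 51 had Krt19.

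Taken by type, 96 columns had at least 1 type II and 1 type I member, 18 had a type II member only, 12 a type I member only, and 111 had none. Without both collagens, the most common set was Krt8, Krt18, Krt19 and Krt7 together, in 42 of 158 columns, followed by no member in 34 and Krt8, Krt18 and Krt7 in 29. Krt7 was by itself in 10 columns, Krt18 in 5, Krt19 in 5 and Krt8 in 4. All 5 members were present in 3.

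**Figure D2:**
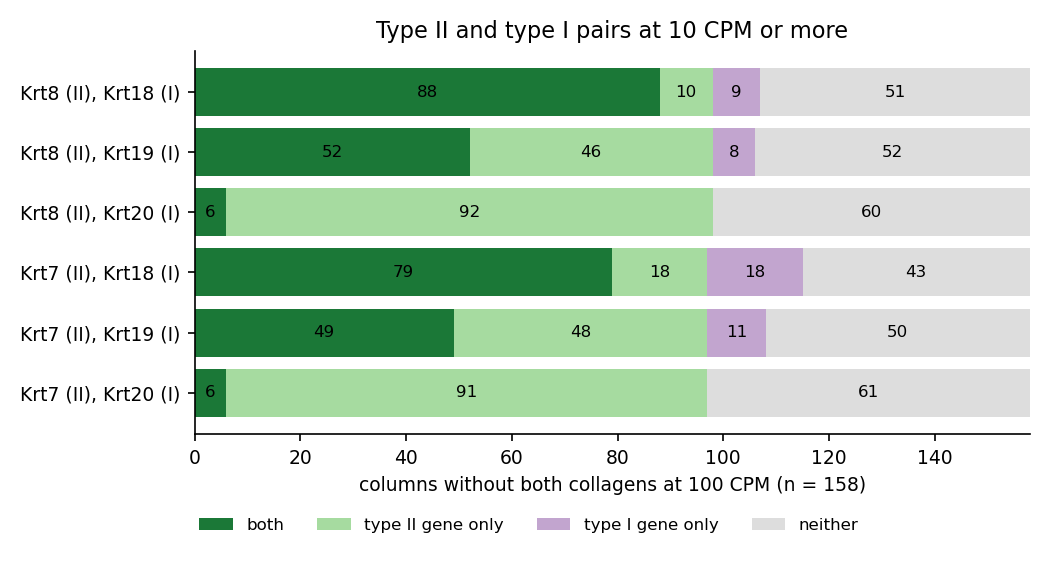
Number of the 158 columns without both collagens in which a type II and a type I gene were both present, only 1 of them was, or neither was, at 10 CPM or more. Krt8 and Krt18 were together in 88 columns and apart in 10 and 9.

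Where Krt8 and Krt18 were both present, their levels per kb of exon were close. The median log2 of Krt18 over Krt8 was -0.20 on this scale, with quartiles of -0.85 and 0.39 over 89 columns, and 68 of the 89 lay within 1 of 0. The extremes were -3.18 and 2.93. With the members summed by type, the median log2 of type I over type II was -0.04 in the 84 columns with both genes at 100 CPM or more. Its interquartile range of 0.84 was narrower than the 1.11 of Krt18 over Krt8 in the same columns. The SD differed little, at 0.9 against 0.93, and 66 of the 84 lay within 1 of 0 for either ratio. With all listed keratins summed by type, the median was further from 0, at 0.38, and 61 of the 84 lay within 1 of 0.

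Krt7 and Krt19 were mostly below Krt8 and Krt18 in the same columns. Per kb, the median log2 of Krt7 over Krt8 was -4.41 over 83 columns, with Krt7 above Krt8 in 1. The exons annotated for Krt7 sum to 7049 bases, and with the 4094 bases of its longest-coding transcript the median was -3.63. By CPM without length it was -2.57. Against Krt18, a type I partner, the median log2 of Krt7 per kb was -4.38 over 80 columns, with Krt7 higher in 2. The median log2 of Krt19 over Krt18 was -3.22 over 52 columns, with Krt19 higher in 6, and -1.64 where both reached 100 CPM.

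**Figure D3:**
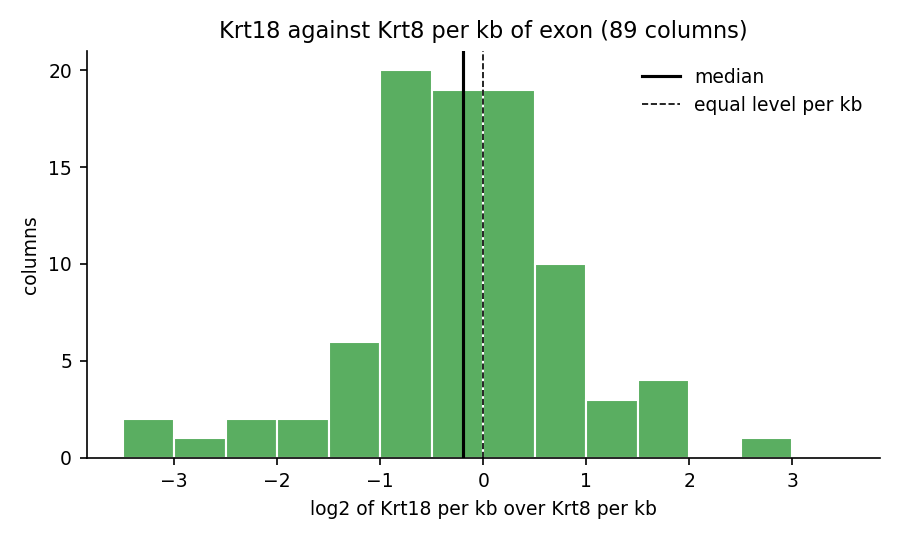
Histogram of log2 of Krt18 over Krt8, both in CPM per kb of exon, in the 89 columns with both at 10 CPM or more, in bins of 0.5. The solid line is the median of -0.20 and the dashed line equal levels per kb.

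**Figure D4:**
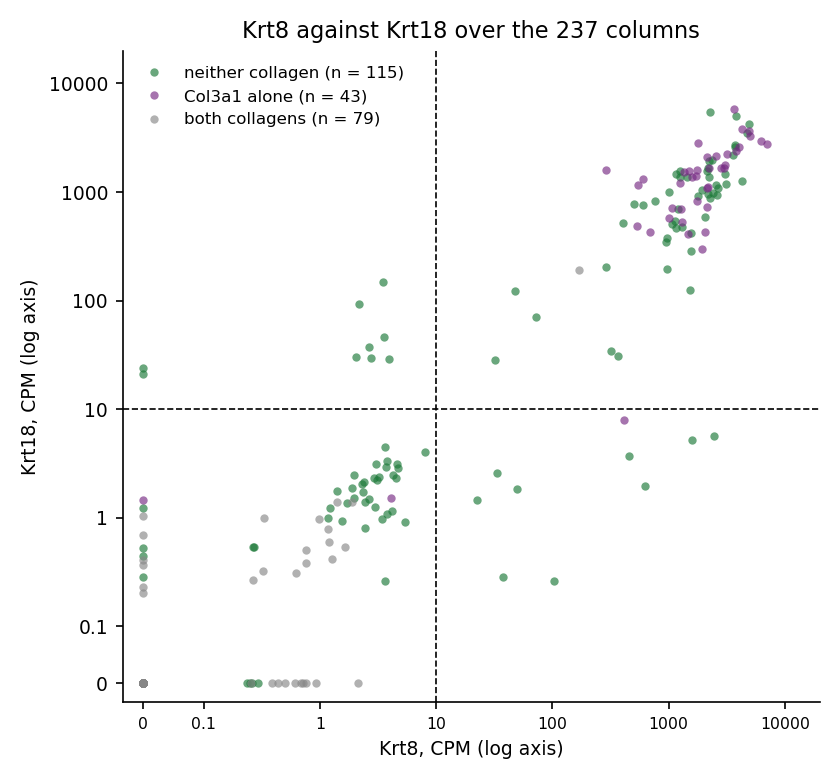
CPM of Krt8 and Krt18 in each column on log axes, with 0 drawn at the axis and dashed lines at 10 CPM. Of the columns, 89 lie beyond both lines, and 10 and 9 lie beyond the Krt8 or the Krt18 line only.

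The 10 columns with Krt8 but no Krt18 were mixed in their other type I keratins. In 7 of them another listed type I keratin reached 100 CPM. The column with 627 CPM of Krt8 had 27464 CPM of Krt15, a basal type I keratin, and 249.8 CPM of Krt19. The column with 454 CPM of Krt8 had 16431 CPM of Krt17, a keratin of periderm and appendages, and 1264 CPM of Krt7.

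The other 3 columns had no listed type I keratin at that level. Krt8 was at 2452, 1575 and 22.6 CPM in them, and Krt18 at 5.64, 5.25 and 1.47 CPM. In the first, Krt15 was the highest type I keratin listed, at 28.6 CPM. In the second, it was at 17.3 CPM.

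The 9 columns with Krt18 but no Krt8 all had the basal pair Krt5 and Krt14. Krt5 lay between 1289.5 and 4336 CPM and Krt14, the basal type I partner of Krt5, between 4124 and 9247 CPM. Krt18 itself was at 21.1 to 149.5 CPM, and 2 of these columns are WT-KCB cells of embryo WT01. Krt7 was present in 3 of the 9.

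Beside the basal keratin Krt5, each of the 4 common members was less often present. Of the 158 columns without both collagens, 80 had Krt5 at 100 CPM or more. Krt8 was present in 26 of these (32.5%, 22.4% to 43.9%) and in 72 of the other 78 (92.3%, 84.0% to 97.1%). Krt7 differed less, with 35 of 80 (43.8%, 32.7% to 55.3%) against 62 of 78 (79.5%, 68.8% to 87.8%). Krt19 was present in 20 and 40, and Krt20 in 3 and 3. Since the qPCR screen used Krt5 for WT and Krt8 for knockout cells, the screen, the genotype and the preparation cannot be told apart here.

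Krt5 and the simple keratins did occur together at high levels. Krt5, Krt8 and Krt18 were all at 100 CPM or more in 16 columns. With Krt14 the overlap was smaller, as 8 columns had it at 100 CPM or more together with Krt8 at that level. In the 34 columns without both collagens and without any member, Krt5 reached 100 CPM in 28 and Krt14 in 24. Of these 34, 4 had Col3a1 at 100 CPM or more and 30 had neither collagen at that level.

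Trp63, the gene edited in the knockout, did not divide the columns by itself. Trp63 RNA was at 100 CPM or more in 102 of the 158 columns, and Krt8 was present in 51 of these (50%, 39.9% to 60.1%) and in 47 of the other 56 (83.9%, 71.7% to 92.4%). Small insertions or deletions can leave RNA of an edited gene in place, so its level does not give a column's genotype.

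The columns richest in a member were often shared. The column with the most Krt8, at 6977 CPM, also had the most Krt20 (287 CPM) and the third most Krt7 (2216 CPM) and Krt19 (1627 CPM), and it had 1866 CPM of Krt17. The column with the most Krt19, at 7964 CPM, had 4674 CPM of Krt7 and 4891 CPM of Krt5, with Krt14 at 1.42 CPM. The column with the most Krt7, at 4819.7 CPM, had 25108 CPM of Krt14 and 1624 CPM of Krt19. In these last 2 columns Trp63 was at 0.474 and 1.74 CPM.

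Krt20 never occurred without a simple type II keratin. All 6 of its columns had Krt8 and Krt7 present, and 5 had Krt18. In decreasing order, Krt20 was at 287, 62.7, 57.4, 56.3, 49.7 and 43.6 CPM, with Krt8 at 6977, 2131, 627, 1163, 2069 and 1723 CPM and Krt7 at 2216, 374, 191, 782, 472 and 679.8 CPM. Krt18 was lowest in the third, at 1.97 CPM, where Krt5 was 2695 CPM. Col3a1 was above 100 CPM in 4 of the 6, and Krt14 was below it in all 6.

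Of the Merkel list, Atoh1, the factor that specifies Merkel cells, and Isl1 and Sox2 had no count in any Krt20 column. Piezo2, the touch channel of Merkel cells, was present in 4 of the 6, with a median of 74.0 CPM. It was also present in 15.8% of the other columns without both collagens. Sfn, Grhl3, Epcam and Cdh1 were present in all 6, and in 90.1%, 59.9%, 94.7% and 91.4% of those other columns. Krt17 and Krt6a, also on the periderm list, were each present in 1 of the 6. The labels name 1 WT cell as high in K8 and K20, and the column names do not tell which column it is.

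Other genes were described in the 84 columns with Krt8 and Krt18 at 100 CPM or more. Of these, 83 did not have both collagens at 100 CPM or more, and 1 was the collagen column with 169 CPM of Krt8. The 83 include columns with Col3a1 alone at that level. A gene was counted where it was present in over 50% of these columns, as were 33.7% of the 15756 genes with 1 CPM or more without both collagens. All 14 genes of the epithelial surface and junction list were, with a median share of 91.1% against 29.8% over all genes tested. Among its abundant members were Epcam (1249 CPM summed) and Spint2 (946 CPM), membrane proteins of epithelia. Of epithelial transcription factors, 10 of 14 were, led by Klf5 (466 CPM), Gata3 (398 CPM) and Grhl3 (366 CPM). Of the genes that link keratins to junctions, 8 of 13 were, led by the desmosomal genes Jup (999 CPM) and Pkp3 (494 CPM) and the cytolinker Plec (227 CPM).

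Some members of these lists, chosen after their values were seen, differed widely between these 84 columns and the 75 others without both collagens. The tight junction gene Cldn3 was present in 94.0% of the 84 and 6.67% of the 75, and Cldn7 in 90.5% and 13.3%. Pkp2, a plakophilin of simple epithelia and heart, was present in 76.2% and 9.33%. Pkp1, a plakophilin of stratified epithelia, was present in 3.57% and 69.3%. Epcam was present in 97.6% and 90.7%, with summed levels of 1249 and 427 CPM. Other members differed little in presence, such as Jup (96.4% and 94.7%). Some were a little more frequent in the 75, such as Plec (82.1% and 89.3%) and Gata3 (84.5% and 90.7%). How many of all genes differ as widely as those named first was not tested.

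Keratins of stratified epithelia were sparse in the 84 columns. Of 16 listed, 1 was present in over 50%, namely Krt15, in 70.2% with 1978 CPM summed. Krt14 was present in 19% (549 CPM) and Krt5 in 32.1% (129 CPM). Of the basal keratinocyte list 1 of 5 was counted (Krt15 again), of the intermediate keratinocyte list 1 of 4 (Krtdap, 114 CPM, ahead of Krt10 at 8.04 and Krt1 at 7.88 CPM), and of the periderm list 2 of 4 (Grhl3 and Sfn, the latter at 323 CPM). Krt6a, the third by level in that list, was at 79.2 CPM and present in 4.76%. Krt17, its remaining gene, was present in 13.1% at 59.7 CPM, against 66.7% and 686 CPM in the other columns without both collagens. In those, Sfn was about as frequent (89.3% against 90.5%) and higher, at 525 CPM. Grhl3 and Krt6a were lower there, at 138 and 6.15 CPM. Krt6a was about as frequent there, however. Its summed level in the 84 columns rested on few of them, with a highest value of 4009 CPM.

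Markers of other cells were mostly in a minority of the same columns. None of the 6 fibroblast genes was present in over 50%. Col3a1 was present in exactly 50% (357 CPM), against 12% of the 75 others (106 CPM). Col1a2 was at 57.6 CPM (51.7 in the others) and Lum at 36.9 CPM (1.23). Lum was present in 9.52%, about as often as in the others, and its highest value was 2627 CPM. Vim went the other way, at 21.5 CPM against 156 CPM, and was more frequent in the others (42.7%). Pdgfra, whose product the sort removed, was present in none. None passed among the Merkel genes (Piezo2 19.1, Krt20 4.85 and Atoh1 4.75 CPM) or the mesothelial genes (Upk3b 16.9, Msln 13.8 and Wt1 0.770 CPM, against 0.0453, 1.47 and 0.0388 CPM in the others). The same held for endothelium (Kdr 7.88 CPM), melanocytes (Mitf 0.596 CPM), neurons (Tubb3 0.789 CPM) and muscle (Des 1.16 CPM). Of leukocyte genes, Ptprc and Cd207 had no count.

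Red cell genes reached higher levels. Hba-a1, the alpha-globin gene of red cells, was present in 19 of the 84 columns and summed to 5879.7 CPM, against 31.2 CPM in the 75 others, and Hbb-bs summed to 4093 CPM. In 1 column Hba-a1 reached 275076 CPM, which lowers the CPM of every other gene there. Its part in the keratin levels was not tested.

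The genes most like each member were sought among 11968 genes with 10 CPM or more in at least 24 columns. For Krt8 over all columns they were Krt18 (rho 0.93), the claudins Cldn6 (0.87), Cldn3 (0.87), Cldn7 (0.86) and Cldn4 (0.83), with a median of -0.03 over all genes compared. For Krt18 they were Krt8 (0.93), Cldn7 (0.86), Cldn6 (0.86), Cldn3 (0.84) and Epcam (0.82). Krt7 was most like Gabrp (0.83), Epcam (0.82), Spint2 (0.81), Krt8 (0.81) and Cgn (0.81). Krt19 had weaker likeness, led by Krt8 (0.65), Krt18 (0.64), Marveld3 (0.63), Arhgap8 (0.63) and Gabrp (0.63). Claudins, Cgn and Marveld3 are tight junction genes.

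Over the 158 columns without both collagens the orders changed little for the main pair. Krt8 was followed by Krt18 (0.89), Cldn7 (0.81), Cldn3 (0.80), Cldn6 (0.79) and Slc40a1 (0.71), the iron exporter ferroportin. For Krt18 the genes after Krt8 were Cldn7 (0.81), Cldn3 (0.76), Cldn6 (0.75) and Upk3bl (0.72). Krt7 was led by Cldn3 (0.65), Gabrp (0.65), Cldn6 (0.65), Upk3bl (0.64) and Cldn7 (0.63). Krt19 was led by Marveld3 (0.52), Trim16 (0.50), Arhgap8 (0.49), Proser2 (0.48) and Myl6 (0.45), with Krt8 at rank 8. Krt20 was present in too few columns for this search.

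The Krt8 counts could mix with those of a near-identical pseudogene. Krt8-ps, on chromosome 7 from 23357125 to 23358069, matched the Krt8 mRNA at 98.6% of 941 aligned bases, with identical runs of up to 299 bases. In the 92 columns with Krt8 at 100 CPM or more, its count was 0.390% of that of Krt8 at the median (quartiles 0.323% and 0.446%). Of Krt8 values above 0, 46.5% carried a fraction, against 0 of Krt18 values.

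In the 16 cells with labels, the simple keratins were low, and which of them were present varied from cell to cell. The cells are 11 of the basal layer (WT-KCB), 1 of the intermediate layer (WT-KCI) and 4 that the labels call K17 high and the study calls periderm (WT-KCP), all of 1 embryo. The study named these types from marker expression, and the K17 high label is itself a keratin's, so the keratins are not independent of the labels. Krt7 was the member most often present in WT-KCB. Its lowest, median and highest values there were 0, 36.9 and 266 CPM, and it was present in 7 of 11 cells. In the WT-KCI cell it had no count, and in WT-KCP it was 25.1, 0.285, 0.223 and 0.315 CPM.

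Summed, Krt7 was 71.2 CPM (69.5 to 73.0) in WT-KCB and 6.10 CPM in WT-KCP, which is 0.0856 times as much (0.0733 to 0.0994). The ranges overlapped through the WT-KCP cell at 25.1 CPM. Krt19 was present in 3 of 11 WT-KCB cells, at 60, 20.6 and 10.2 CPM, with a median of 0. It was 43.7 CPM in the WT-KCI cell and had no count in any WT-KCP cell, at least 88.8-fold lower than the 9.12 CPM of the summed WT-KCB cells, against 3 counts over the group. Without WT-KCB cell 3 that bound was 32.2. The ranges overlapped at 0. Of the 4 members with 1 CPM or more in either type, Krt7 and Krt19 were thus past 4-fold lower in WT-KCP, as were 15.7% of 15387 genes.

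Krt8 was the only member past 4-fold higher in WT-KCP, as were 10.1% of those genes. It was present in 3 of 4 WT-KCP cells and in 1 of 11 WT-KCB cells, with summed levels of 32.3 and 4.32 CPM and a ratio of 7.48 (6.64 to 8.45). Nearly all Krt8 in WT-KCB came from cell 2, and without it WT-KCB was at 0.0750 CPM and the ratio at 430.4. Cell 2 also had the most Krt17 of the WT-KCB cells, at 613 CPM with 106 CPM the next. Its Krt5, at 491 CPM, was the lowest of the 16 cells. Krt18 had a ratio of 1.46 (1.33 to 1.6), which became 4.75 without cell 2 and fell below 1 without WT-KCP cell 15. The ranges of both genes overlapped between the types. Krt20 was without a count throughout these 16 cells.

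Pairing in these cells was partial. Krt8 and Krt18 were present together in 3 cells, WT-KCB cell 2 and WT-KCP cells 10 and 15. WT-KCP cell 11 had Krt8 at 37.3 CPM with Krt18 at 0.285 CPM, and WT-KCB cells 5 and 8 had Krt18 at 21.1 and 24.2 CPM without a count of Krt8. Of the 7 WT-KCB cells with Krt7, only cell 3 had Krt19 (60 CPM) and only cell 8 had Krt18. In all 16 cells Krt5 was at 491 CPM or more, and no simple keratin passed 266 CPM.

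**Figure D5:**
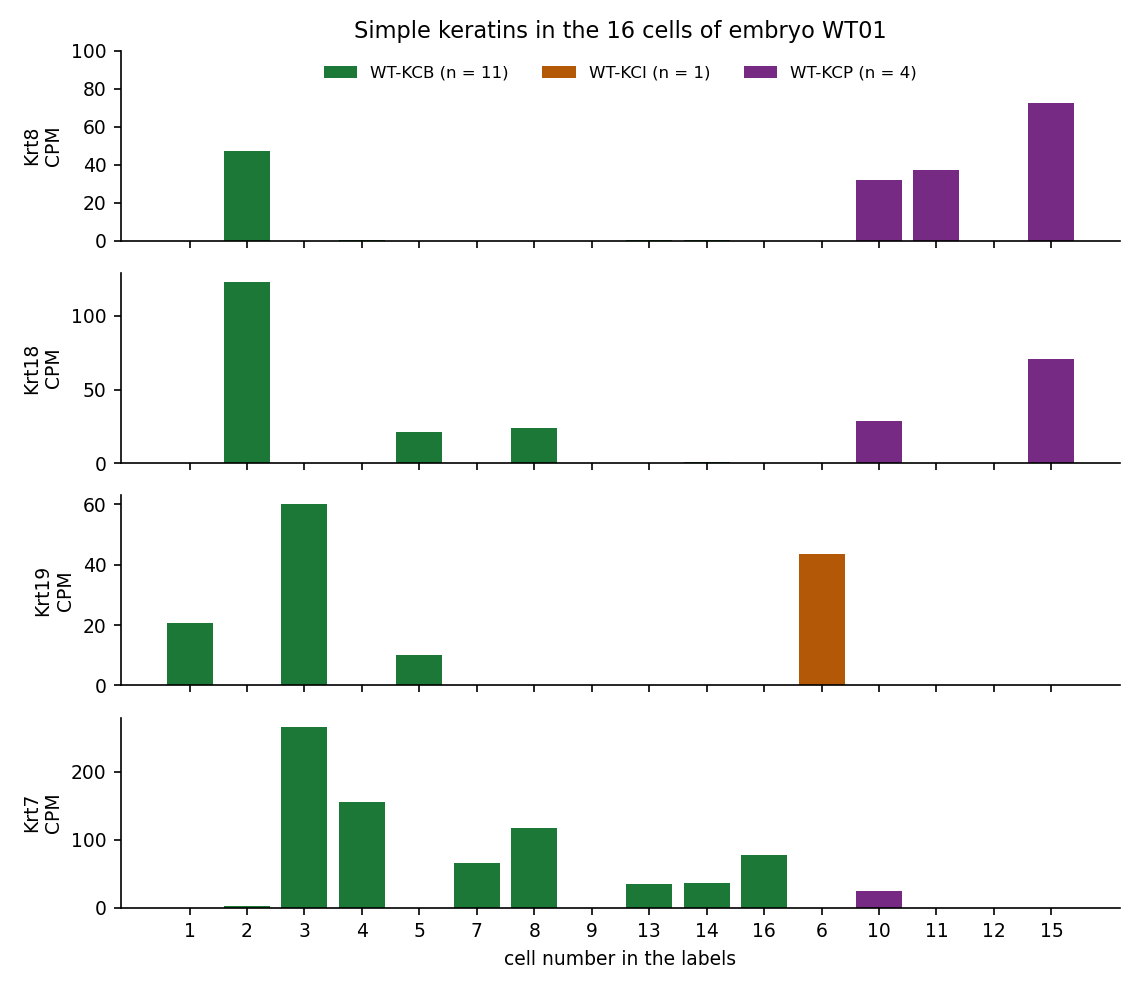
CPM of Krt8, Krt18, Krt19 and Krt7 in each of the 16 labelled cells of embryo WT01, as bars from 0 with a scale of its own for each gene, grouped as WT-KCB, WT-KCI and WT-KCP. Krt7 lies mostly in WT-KCB, up to 266 CPM, and Krt8 in 3 WT-KCP cells and WT-KCB cell 2.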

How the data were processed

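Single-cell SMART-Seq HT libraries of mouse skin at E14.5 were sequenced by the authors, who trimmed the reads with Trimmomatic (per the labels), used HISAT2 for alignment to mm10, and assigned reads to Ensembl release 97 genes by featureCounts. The deposited values are estimated counts per gene, not normalized, in 237 columns. The strand setting is not given in the sources used here. Of nonzero values 23.2% carry a fraction, and all were rounded. Column totals lay between 2701500 and 19197138 counts. CPM, shares with exact binomial intervals, summed CPM with exact Poisson intervals, log2 ratios per kb of GENCODE M21 exon and Spearman correlations were computed. With 1 pooled set and 1 embryo of labelled cells, no test between groups was run, and no doublet caller was applied. The 16 labelled columns were paired by the study's supplementary data. The fold comparison and the correlation search were tested on simulated data. The 5 members, the gene lists and the rule for named genes were chosen with earlier results of these data known. The rule took the members, Col1a1, Col3a1, Krt5, Krt14, Krt17, Krt1, Krt10 and Trp63, the 3 most abundant genes of each of 16 lists, and the 5 genes most like each member. A gene that this rule names is not reported here. Krt19 had no RefSeq window and was not searched for motifs. Alternatives were other scalings, thresholds, thinning and leaving cells out. Computation used scipy 1.17.1, pandas 2.3.3 and numpy 2.4.6 in Python 3.11.15, and plots matplotlib 3.10.9.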

Additional observations from a re-analysis of the deposited data

Results flagged for a closer look

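Among the 4 WT-KCP cells, Krt7 was 25.1 CPM in cell 10 and at most 0.315 CPM in the other 3. The gap from this cell to its neighbour was 0.996 of the range, past the limit of Dixon's rule at the 95% level. That limit is passed by chance in about 1 in 20 groups of normally distributed values. Whether CPM of single cells is so distributed was not tested, so this rate may not hold here. The 3 members with counts in these cells were looked at. The 4 cells come from 1 embryo and are not replicates, so the gap describes these cells only.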

How the results depend on the processing

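In 148 of 215 recomputed values the result stayed within its interval, or for the ratios within 1 SD, and none changed sign among called values. Counts with fractions and thinning to 1000000 counts moved none out of it. No column had under 1000000 counts, so leaving such columns out could change nothing, and it is not counted here. Dividing by totals without the 3 genes of most counts (CT010467.1, Col3a1 and Eef1a1) gave summed levels of 951 for Krt8, 629 for Krt18, 114 for Krt19, 196 for Krt7 and 2.22 CPM for Krt20. The mean of the columns' CPM was 793 for Krt8, 534 for Krt18, 171 for Krt7 and 2.35 for Krt20. Without the column with most counts of the gene, a setting chosen after seeing the data, the levels were 861 for Krt8, 573 for Krt18, 91.5 for Krt19, 153 for Krt7 and 1.13 CPM for Krt20. With presence at 1 count, the share of all columns was 70.9% for Krt8, 70.5% for Krt18, 51.9% for Krt19 and 61.6% for Krt7, and at 100 CPM it was 15.6% for Krt19, 28.3% for Krt7 and 0.422% for Krt20. At 1 count, 70.2% of Krt8 and 73.3% of Krt7 columns had Krt19, and 95.2% of Krt7 columns had Krt18. At 100 CPM, 40.2% of Krt8 and 37.3% of Krt7 columns had Krt19, and 1.09% and 1.49% had Krt20. At 1 count, the columns without both collagens held Krt8 in 91.1%, Krt18 in 93.0%, Krt19 in 71.5% and Krt7 in 91.8%, and those with both in 30.4%, 25.3%, 12.7% and, for Krt7, within the interval. At 100 CPM the share without both collagens was 22.8% for Krt19, 41.8% for Krt7 and 0.633% for Krt20. With either collagen enough, the share without was 51.3% for Krt8, Krt18 and Krt7, and the share with was 32.8% for Krt8, 32% for Krt18 and Krt7 and 22.1% for Krt19. With both collagens at 1000 CPM, or without the 1 column that had both collagens and Krt8 (chosen after seeing the data), the share with collagens was 0 for Krt8, Krt18 and Krt7. By the mean of the cells' CPM, the log2 of WT-KCP over WT-KCB for Krt18 was 0.70. Leaving out each cell gave log2 ratios of 2.29 to 8.75 for Krt8, -0.79 to 2.25 for Krt18 and -8.05 to -3.01 for Krt7. The extremes came without WT-KCP cell 15 and WT-KCB cell 2 for Krt8 and Krt18, and without WT-KCP cell 10 and WT-KCB cell 3 for Krt7. Where only the collagen or presence threshold moved, the change follows from fewer or more columns counted, and for the other settings the cause was not tested. A count of 0 over the 16 cells or a set is limited by 3 counts of the summed total.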
